A study of Mus musculus with 20 samples.

Results

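The genes described here encode the machinery with which the endoplasmic reticulum (ER) takes in, folds and clears newly made proteins. They were chosen by symbol from a list of 38 genes, made with earlier results of these data known. All 38 were found among the 29915 genes of the read count table and passed the filter on low counts. They fall into 8 roles: 9 luminal chaperones and their cochaperones, 4 disulfide isomerases, 2 lectin chaperones, 3 genes of stress sensing (2 sensors and 1 transcription factor), 8 genes of misfolded protein degradation, 5 genes of the Sec61 translocon, 4 of the translocon-associated protein complex and 3 of the signal peptidase complex. Messenger RNA came from livers of male mice on chow, kept under 12 h of light and 12 h of dark. The mice carried either wild-type Prox1 or a knock-in of Prox1 K556R, in which the lysine that takes up SUMO is replaced. Prox1 is a homeodomain transcription factor of hepatocytes, and SUMO is a small protein that cells link to lysines of their proteins. K556R was switched on in hepatocytes by Cre recombination when the mice were 8 weeks old, and livers were taken 11 weeks later at Zeitgeber times 15 to 17. Each genotype was studied fasted and refed, with 5 libraries in each of the 4 groups. The titles call the genotypes Ctrl and Cre, and effects of the recombinase and of K556R cannot be told apart by them; the labels give neither the Cre driver nor how long the mice were fasted or refed.

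Most proteins that the liver secretes, such as albumin and clotting factors, enter the ER through the Sec61 channel while they are being made. Signal peptidase removes their signal peptide, the chaperone BiP (Hspa5) and the disulfide isomerases fold them, and chains that fail to fold are drawn back to the cytosol and degraded. When unfolded chains accumulate, the sensors IRE1 (Ern1), ATF6 (Atf6) and PERK (Eif2ak3) start the unfolded protein response: IRE1 splices the Xbp1 messenger RNA, ATF6 is cut in the Golgi, and the resulting transcription factors raise chaperone and degradation genes through ER stress response elements in their promoters. Splicing of Xbp1 and cleavage of ATF6 are not visible in counts per gene.

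Total counts per library ranged from 33746054 to 50647297. Of the 20 libraries, 14 belonged to batch 1 and 6 to batch 2, with 3 of the latter in K556R refed and 1 in each other group. Libraries are named by number and batch, such as 1_b1. Values listed for a group run in the order 1_b1, 2_b1, 3_b1, 4_b1, 1_b2, and for K556R refed in the order 1_b1, 2_b1, 1_b2, 2_b2, 3_b2. On the second principal component of all tested genes, K556R fasted 1_b1 (−39.5) and K556R refed 1_b1 (−57.3) stood apart from the others (−8.06 to 10.7). On the first, wild type fasted 1_b2 (−14.4) was the fasted library nearest to the refed ones. Prox1 itself lay at 185 ± 38.5 and 104 ± 15.7 CPM in wild type and K556R fasted livers and at 110.1 ± 15.7 and 75.5 ± 12.1 CPM in refed livers (SD, n = 5), a count that cannot show which allele was read. The 7 hepatocyte markers summed to 98460 to 142700 CPM in each library. ER genes are abundant in pancreatic acinar and plasma cells. All 11 of the 11 acinar markers were in the table, and their sum was 17.6 to 25.1 CPM in wild type fasted, 10.2 to 22.3 CPM in K556R fasted, 19.8 to 28.6 CPM in wild type refed and 8.65 to 21.9 CPM in K556R refed livers. Cela1 made up most of it (8.46 to 28.5 CPM), Cela2a lay between 0.108 and 0.538 CPM, and Cela3b and Ctrb1 reached at most 0.0311 CPM. The other 7, Prss2, Cpa1, Amy2a5, Pnlip, Clps, Cpb1 and Rbpjl, were at 0 counts in all 20 libraries. The plasma cell gene Tnfrsf17 reached at most 0.0477 CPM. The plasma cell gene Igj lay between 0.392 and 1.08 CPM in wild-type livers and between 0.725 and 15.3 CPM in K556R livers. Of 8 plasma cell markers 6 were in the table, Derl3 among them, and their sum, mostly Sdc1, which hepatocytes also express, was 185 to 277 CPM in wild type fasted, 243 to 335 CPM in K556R fasted, 268 to 317 CPM in wild type refed and 304 to 439.6 CPM in K556R refed livers.

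The ER stress response element (ERSE) is CCAAT, then 9 bases of any kind, then CCACG, and another form, ERSE-II, is ATTGG, then 1 base of any kind, then CCACG. Both were searched for on both strands of the 300 bases from 250 before to 50 after the gene start, in RefSeq promoters on GRCm38.p6, which held 31 of the 38 genes. The windows below are shown because they carry the element and belong to genes that rose, stayed uncalled or fell on refeeding. They are written 5′ to 3′ on the strand that reads the element, with its fixed letters in capitals. The first 5 belong to genes that rose on refeeding, the next 2 to genes not called in wild type, and the last 2 hold ERSE-II, in a gene that rose and in one that fell.
Hspa5: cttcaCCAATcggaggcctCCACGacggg
Calr: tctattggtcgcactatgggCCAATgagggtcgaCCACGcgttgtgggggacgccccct
Creld2: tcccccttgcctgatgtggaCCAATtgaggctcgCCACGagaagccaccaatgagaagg
Pdia6: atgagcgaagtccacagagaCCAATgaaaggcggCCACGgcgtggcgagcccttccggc
Syvn1: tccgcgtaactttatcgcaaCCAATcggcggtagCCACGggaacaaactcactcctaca
Canx: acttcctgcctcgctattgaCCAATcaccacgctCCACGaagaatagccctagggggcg
Dnajc3: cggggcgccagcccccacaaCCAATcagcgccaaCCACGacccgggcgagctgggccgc
Dnajb11: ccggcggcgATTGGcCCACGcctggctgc
Herpud1: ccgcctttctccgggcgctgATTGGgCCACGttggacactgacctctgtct
The windows lie at chr2:34772020-34772048 (plus strand) for Hspa5, chr8:84847055-84847113 (plus strand) for Calr and chr15:88819500-88819558 (minus strand) for Creld2. They lie at chr12:17266471-17266529 (plus strand) for Pdia6, chr19:6046512-6046570 (plus strand) for Syvn1, chr11:50325780-50325838 (minus strand) for Canx and chr14:118937807-118937865 (plus strand) for Dnajc3. The ERSE-II windows lie at chr16:22857843-22857871 (plus strand) for Dnajb11 and chr8:94386357-94386407 (plus strand) for Herpud1. The Dnajb11 element begins 8 bases after the RefSeq start, and the Hspa5 window lies downstream of the earlier start that GENCODE M21 gives. The other 7 windows lie upstream of the member's own GENCODE gene body.

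An ERSE was found in 9 of the 31 promoters (29.0%), against 39 of all 32851 promoters of the same length (0.119%). The holders were Hspa5, Hsp90b1, Dnajc3, Creld2, Pdia6, Calr, Canx, Syvn1 and Derl3, and Hsp90b1 held 2. ERSE-II was found in Dnajb11 and Herpud1 alone among these genes and in 12 of 32851 promoters (0.0365%). Another motif, UPRE (TGACGTGG), was in none of the 31 promoters and in 0.676% of all. All promoters include those of genes that were not tested. Of 9159 tested genes outside the list with a promoter sequence, 10 held an ERSE (0.109%), 4 ERSE-II (0.0437%) and 91 UPRE (0.994%). ERSE is known as an element of ER stress genes, the kind of gene listed here. Its higher share among the listed genes is therefore a description and not a test. An exact match is a description of the sequence and does not show that a factor binds there.

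Refeeding changed most of these genes in wild-type livers (edgeR's quasi-likelihood test, Benjamini-Hochberg adjusted p under 0.05 over 13894 genes). Of the 38, 25 rose, 3 fell (Herpud1, Atf6 and Sec62) and 10 did not pass the test. Among all tested genes 45.1% were called: 20.9% rose and 24.2% fell. Since the 38 genes were chosen with earlier results of these data known, setting them beside all genes is a description and not a test. The median log2 change, refed minus fasted, was 0.49 for the 38 genes and −0.01 for all tested genes. Together the 38 genes took 0.662 to 0.756% of the counts of a wild type fasted library and 0.903 to 1.12% of a wild type refed one, so that those ranges did not overlap. Their summed level went from 7164 ± 501 to 9578 ± 752 CPM (SD, n = 5). Singly, 22 genes had every refed library above every fasted library, and 3 had every refed library below, against 15.9% and 18.7% of all tested genes. Levels are CPM, counts scaled to library sizes with TMM factors, and in whole liver less RNA per cell cannot be told apart from fewer cells of a type. The hepatocyte markers summed to 101000 to 142700 CPM in wild type fasted and 102800 to 109800 CPM in wild type refed livers, and the 9 lymphocyte markers found, of 10, to 1.56 to 3.53 CPM and 3.65 to 5.13 CPM. In K556R livers the hepatocyte sums were 126000 to 133700 CPM fasted and 98460 to 113700 CPM refed. Most of each sum was Alb, at 97700 to 108000 CPM in K556R fasted and 76100 to 88700 CPM in K556R refed livers. Alb, Tat and Hnf4a were lower in K556R refed livers without overlap, while Ttr, Apoa1, Serpina1c and Cps1 overlapped. The lymphocyte sums in K556R livers were 1.72 to 8.74 CPM fasted and 4.09 to 8.61 CPM refed, highest in the library 1_b1 of each group. The 7 proliferation markers summed to 15.2 CPM in K556R fasted 1_b1 and 33.9 CPM in K556R refed 1_b1, the 2 libraries that stand apart, and to 5.31 to 9.46 CPM in the other 18. The part of these markers in the refeeding result was not tested.

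**Figure D1:**
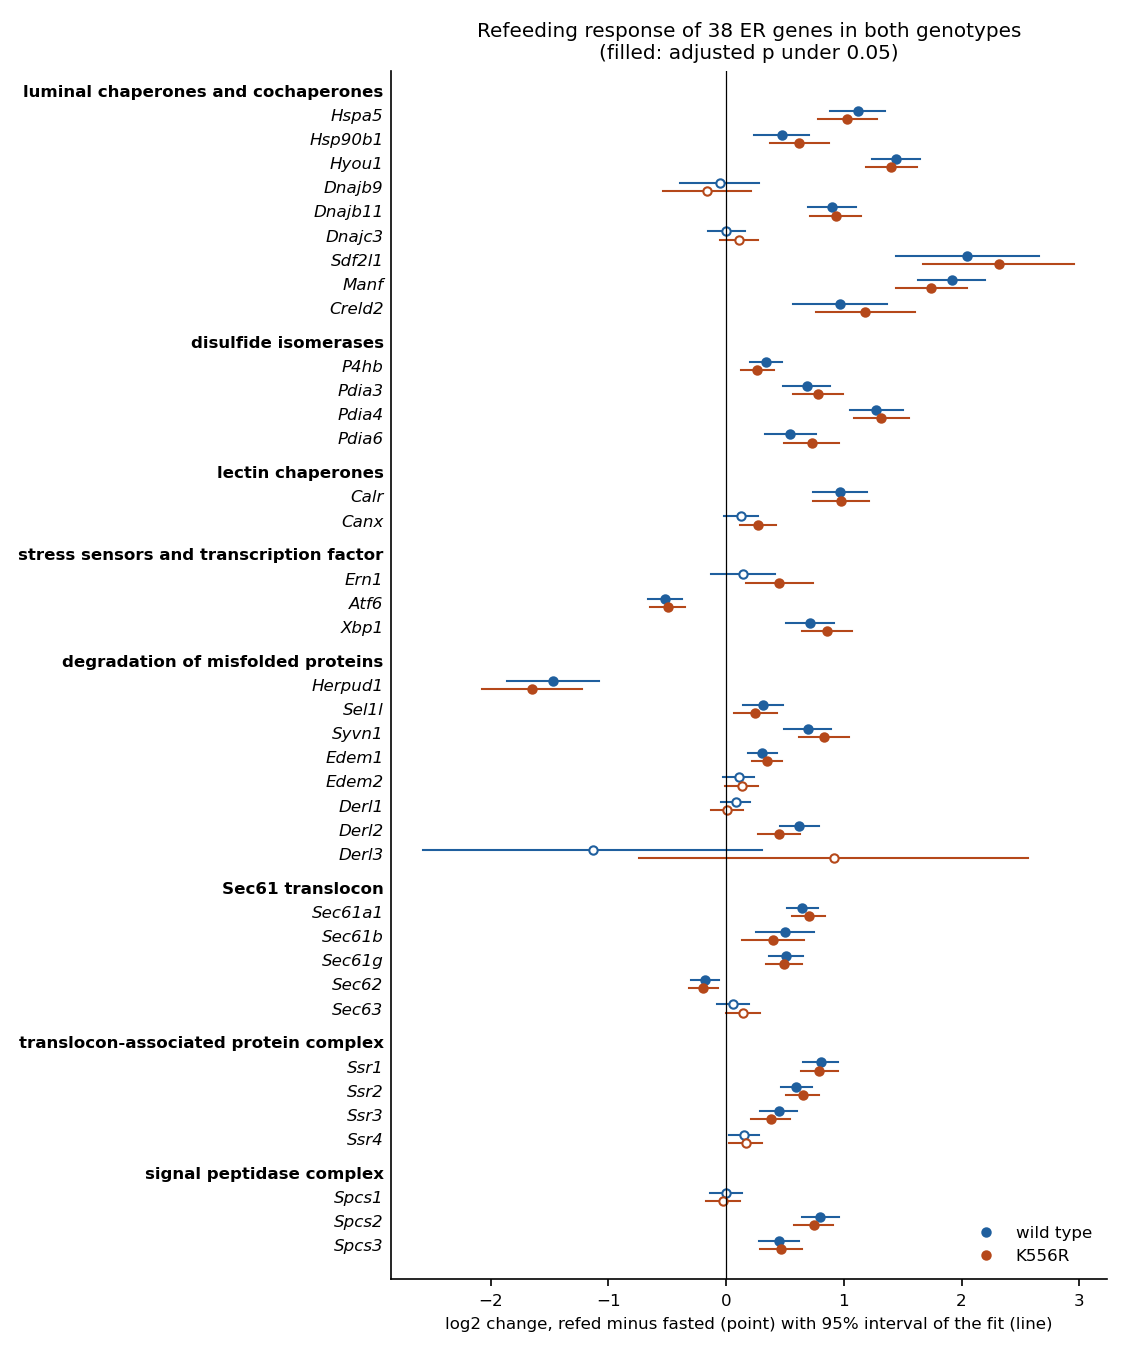
Log2 change on refeeding (x axis, refed minus fasted) of the 38 ER genes, ordered by role on the y axis, in wild type (blue) and K556R (orange) livers, with the 95% interval of the fit as a line and filled points for an adjusted p under 0.05. Most points of both genotypes lie to the right of 0 and close to each other, Herpud1 and Atf6 lie to the left, and Derl3 has the widest intervals.

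Luminal chaperones and cochaperones rose in 7 of 9 cases and fell in none. This and the following counts by role stand beside 20.9% of all tested genes that rose and 24.2% that fell. Hyou1 (chr9:44379490-44392369, GENCODE M21 on GRCm38, as for all gene positions here) encodes GRP170, which exchanges the nucleotide of BiP. Its level in the wild type fasted libraries was 91.3, 93.97, 107, 107 and 92.6 CPM, and in the wild type refed libraries 247, 275, 315, 273 and 229 CPM. The lowest refed library was above the highest fasted one, and the change had the lowest p of these genes (log2 change 1.44, SE 0.097, adjusted p = 2.04e-09). Manf (chr9:106838312-106891979) encodes a small secreted ER protein that is induced by ER stress. It lay at 25.6, 27.7, 29.6, 35.1 and 28.6 CPM in wild type fasted livers and at 98.3, 109.6, 142, 113 and 90.3 CPM in refed ones, a 3.78-fold rise without overlap (log2 change 1.92, SE 0.14, adjusted p = 5.48e-09). Refed 3_b1 held the highest level of both genes.

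Sdf2l1, which binds ER DnaJ proteins, had the largest log2 change of the 38 genes in wild type, from 5.34 ± 2.80 to 22.2 ± 6.78 CPM (SD, n = 5, log2 change 2.05, SE 0.29, adjusted p = 1.77e-05). Hspa5, the main luminal chaperone BiP, went from 501 ± 51.5 to 1087 ± 143 CPM (log2 change 1.12, SE 0.11, adjusted p = 1.79e-07). Creld2, an ER stress-induced protein with disulfide isomerase activity, and Dnajb11, a BiP cochaperone, rose by 0.97 and 0.90 on the log2 scale (adjusted p = 0.000404 and 4.46e-07). Hsp90b1, the ER form of HSP90, rose less (log2 change 0.47, adjusted p = 0.00169), and its fasted and refed ranges overlapped, as did those of Creld2. The cochaperones Dnajb9 and Dnajc3, both known as targets of the unfolded protein response, were not called, with log2 changes of −0.06 (95% interval −0.39 to 0.28) and 0.00 (−0.15 to 0.16). The summed level of the 9 genes went from 1805 ± 192 to 3022 ± 394 CPM.

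All 4 disulfide isomerases, which form and rearrange disulfide bonds, rose. Pdia4 (chr6:47796141-47813430) encodes ERp72. It was measured at 102, 94.1, 111, 96.9 and 108 CPM in the wild type fasted libraries and at 218, 255, 304, 274 and 191 CPM in the refed ones. All refed values exceeded all fasted values (log2 change 1.27, SE 0.11, adjusted p = 2.37e-08), with 3_b1 highest in both groups. Pdia3, which acts on glycoproteins held by the lectin chaperones, rose by 0.69, Pdia6 by 0.55 and P4hb, the founding disulfide isomerase, by 0.34 on the log2 scale (adjusted p = 7.95e-06, 0.000265 and 0.000259). The smallest of these changes belonged to the most abundant gene: per kilobase of exon, P4hb had the highest level of the 38 in fasted and in refed wild-type livers (442 ± 19.6 and 558 ± 19.3 CPM per kb, SD, n = 5). Here and below, exon length covers all GENCODE M21 exons of a gene, so that ranks between genes do not allow for which transcripts are expressed. The ranges of Pdia6 overlapped between feeding states, those of the other 3 did not.

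The 2 lectin chaperones, which hold chains by their sugar trees, were unlike in their values. Calr, the soluble calreticulin, rose from 348 ± 59.3 to 681 ± 90.5 CPM (log2 change 0.97, SE 0.11, adjusted p = 6.19e-07). Canx (chr11:50293961-50325673), the membrane-bound calnexin, lay at 306, 302, 335, 334 and 306 CPM in wild type fasted livers and at 332, 342, 365, 356 and 335 CPM in refed ones. These ranges overlapped and the change was not called (log2 change 0.13, 95% interval −0.02 to 0.27, adjusted p = 0.141). The intervals of the 2 genes did not overlap, although the difference between them was not tested, and both promoters hold an ERSE as printed above.

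Of the 3 genes of stress sensing, 1 rose, 1 fell and 1 did not pass the test. Xbp1 (chr11:5520659-5525893), whose spliced messenger RNA encodes a transcription factor of chaperone and secretory genes, lay at 133, 128, 178, 133 and 202 CPM in wild type fasted livers and at 273, 222, 278, 226 and 262 CPM in refed ones, with no overlap (log2 change 0.71, SE 0.098, adjusted p = 6.29e-06). Atf6 (chr1:170704674-170867771), the sensor that becomes a transcription factor on cleavage, went the other way, from 144, 139, 143, 150.5 and 108 CPM to 96.7, 94.8, 97.7, 88.3 and 96.9 CPM. Every refed library was below every fasted one (log2 change −0.52, SE 0.069, adjusted p = 4.30e-06). The fasted library 1_b2 lay nearest to the refed range, and in batch 2 alone, with 1 library of each wild-type group, the Atf6 change was −0.15. Ern1 (chr11:106394650-106487852), which encodes IRE1, overlapped between fasted livers at 48.9, 39.9, 65.1, 37.98 and 53.99 CPM and refed livers at 56.6, 46.6, 65.2, 53.7 and 49.5 CPM (log2 change 0.14, 95% interval −0.13 to 0.41, adjusted p = 0.414).

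**Figure D2:**
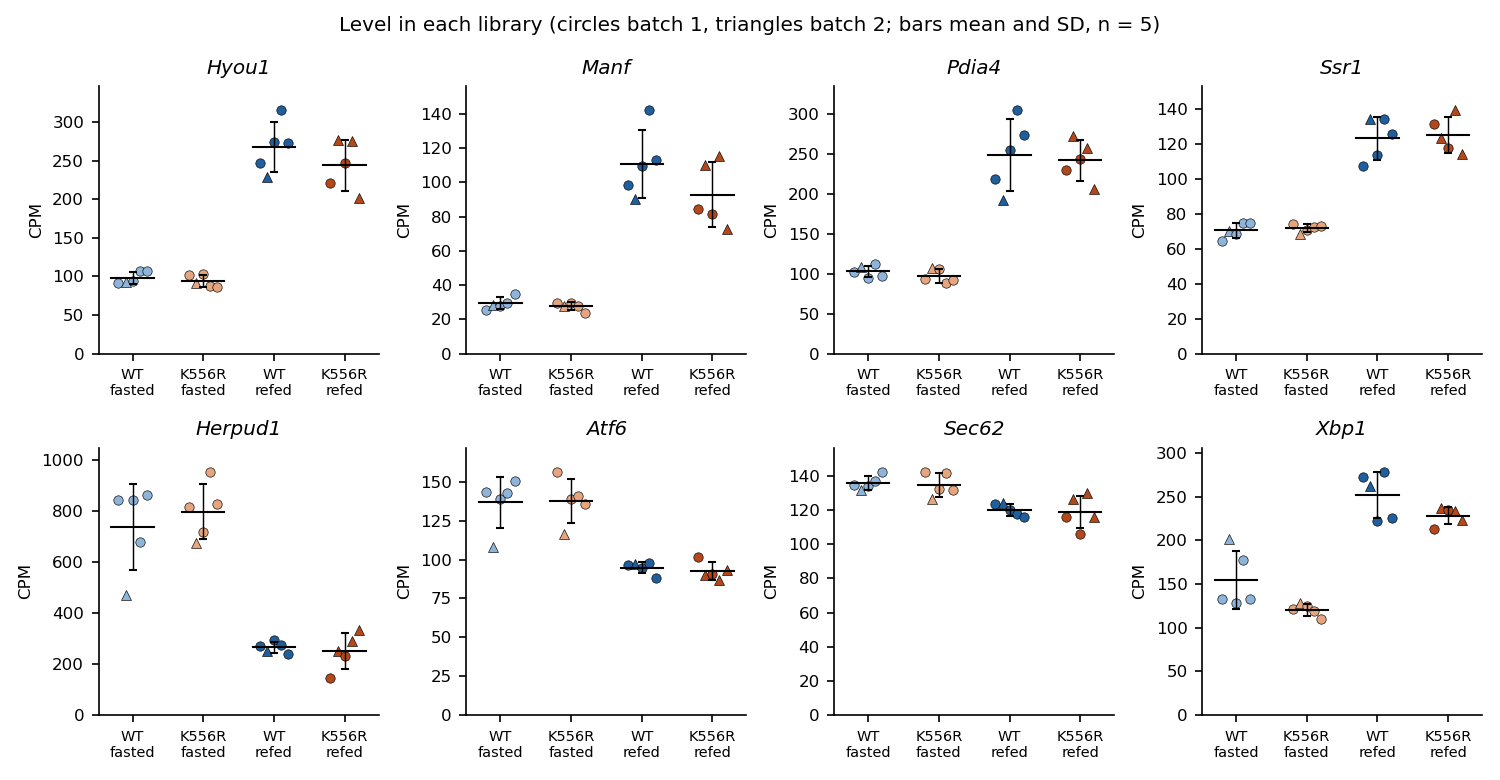
Level in CPM (y axis, linear from 0) of 8 genes in each of the 20 libraries, by group on the x axis, with circles for batch 1, triangles for batch 2 and the mean and SD of 5 libraries as bars. Hyou1, Manf, Pdia4, Ssr1 and Xbp1 are higher in refed livers of both genotypes, Herpud1 and Atf6 are lower, the decrease of Sec62 is small, and the K556R fasted libraries of Xbp1 all lie under the lowest wild type fasted library.

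Genes for the degradation of misfolded proteins were mixed: 4 of 8 rose, 1 fell and 3 did not pass the test, beside 20.9% higher and 24.2% lower among all tested genes. The gene that fell, Herpud1 (chr8:94386438-94395377), encodes a membrane protein that gathers the degradation complex and is itself known to be induced by ER stress. Its wild type fasted libraries held 843, 842, 676, 861 and 469 CPM, and its refed libraries 272, 294, 274, 238 and 251 CPM. The groups did not overlap, with fasted 1_b2 lowest of its group, and the fitted level in fasted livers was 2.77 times that in refed ones (log2 change −1.47, SE 0.18, adjusted p = 3.20e-06). Per kilobase of exon Herpud1 ranked second of the 38 in wild type fasted livers (316 ± 72.2 CPM per kb), after P4hb, and sixth in refed ones (114 ± 9.36 CPM per kb). The summed level of the 8 genes, of which Herpud1 made up 738 ± 168 CPM in fasted livers, went from 1396 ± 176 to 1094 ± 59.4 CPM (SD, n = 5), and the ranges overlapped (1109.8 to 1538.4 CPM fasted, 1041.7 to 1163.1 CPM refed). Without Herpud1 the sum of the other 7 genes was 658 ± 15.2 CPM in fasted and 829 ± 42.9 CPM in refed livers (SD, n = 5), and those ranges did not overlap (641.2 to 677.4 CPM and 791.04 to 889.01 CPM).

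The ubiquitin ligase Hrd1 (Syvn1), its partner Sel1l, the mannosidase-like Edem1 and the channel protein Derl2 were the degradation genes that rose, by 0.69, 0.31, 0.31 and 0.62 on the log2 scale (adjusted p = 7.83e-06, 0.00378, 0.000241 and 3.11e-06). Derl2 (chr11:71007164-71019841) had 67.2, 64.96, 72.5, 67.8 and 71.04 CPM in the wild type fasted libraries and 96.3, 103, 112, 112 and 106 CPM in the refed ones, which did not overlap. Edem2 and Derl1, relatives of Edem1 and Derl2, were not called (log2 change 0.11, 95% interval −0.03 to 0.24, and 0.08, −0.04 to 0.21). Derl3 (chr10:75893413-75895941), the third derlin, was the least expressed of the 38 genes per kilobase in every group. It lay at 1.92, 0.767, 10.2, 0.528 and 0.560 CPM in wild type fasted livers and at 0.476, 1.62, 1.59, 1.96 and 0.388 CPM in refed ones, so that fasted 3_b1 stood alone. With that library the log2 change was −1.14 (SE 0.68, adjusted p = 0.193), and without it 0.25 (adjusted p = 0.716). In the wild type fasted livers, 3_b1 included, Igj was at most 1.08 CPM and Tnfrsf17 was at 0.

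The translocation machinery rose in most subunits. In the Sec61 channel the pore subunit Sec61a1 and the small subunits Sec61b and Sec61g rose by 0.65, 0.50 and 0.51 on the log2 scale (adjusted p = 1.03e-07, 0.00172 and 7.49e-06), with no overlap between fasted and refed wild-type livers in any of the 3. Sec61g (chr11:16500530-16508484) had 32.2, 32.2, 39.7, 41.4 and 34.4 CPM in fasted and 50.97, 47.2, 52.3, 51.7 and 53.2 CPM in refed wild-type libraries. Sec62 and Sec63 work with the channel in import after translation. Sec62 (chr3:30792875-30821263) went from 135, 134, 137, 142 and 132 CPM to 124, 120.3, 117, 116 and 124 CPM. Each refed value was below each fasted value, but the change was small (log2 change −0.18, SE 0.057, adjusted p = 0.0149). Its call was lost with upper-quartile scaling (adjusted p = 0.11), without a filter on low counts (0.0611) and without wild type fasted 4_b1 (0.0675). It was also lost in batch 2 alone, which held 1 library of each wild-type group. Sec63 was not called (log2 change 0.06, 95% interval −0.08 to 0.19).

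The translocon-associated protein complex sits beside the channel and helps some signal peptides to open it. Ssr1 (chr13:37966605-37994217), its alpha subunit, lay at 64.8, 68.4, 74.9, 75.1 and 70.3 CPM in wild type fasted livers and at 108, 114, 135, 126 and 135 CPM in refed ones, again with no overlap (log2 change 0.80, SE 0.071, adjusted p = 3.76e-08). Ssr2 and Ssr3 rose by 0.60 and 0.45 (adjusted p = 3.86e-07 and 6.82e-05), and Ssr4 narrowly missed the threshold (log2 change 0.15, 95% interval 0.02 to 0.28, adjusted p = 0.0516). Of the signal peptidase genes, Spcs2 and Spcs3 rose by 0.80 and 0.45 (adjusted p = 7.73e-08 and 0.00012), whereas Spcs1 stayed at a log2 change of 0.00 (−0.14 to 0.14). Spcs3 is needed for cleavage. The bodies of Manf, Pdia3, Pdia6, Syvn1, Derl2, Spcs1, Spcs2 and Spcs3 overlap another protein-coding gene, and Calr and Spcs2 have pseudogenes named after them, so that some of their reads could belong to those.

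**Figure D3:**
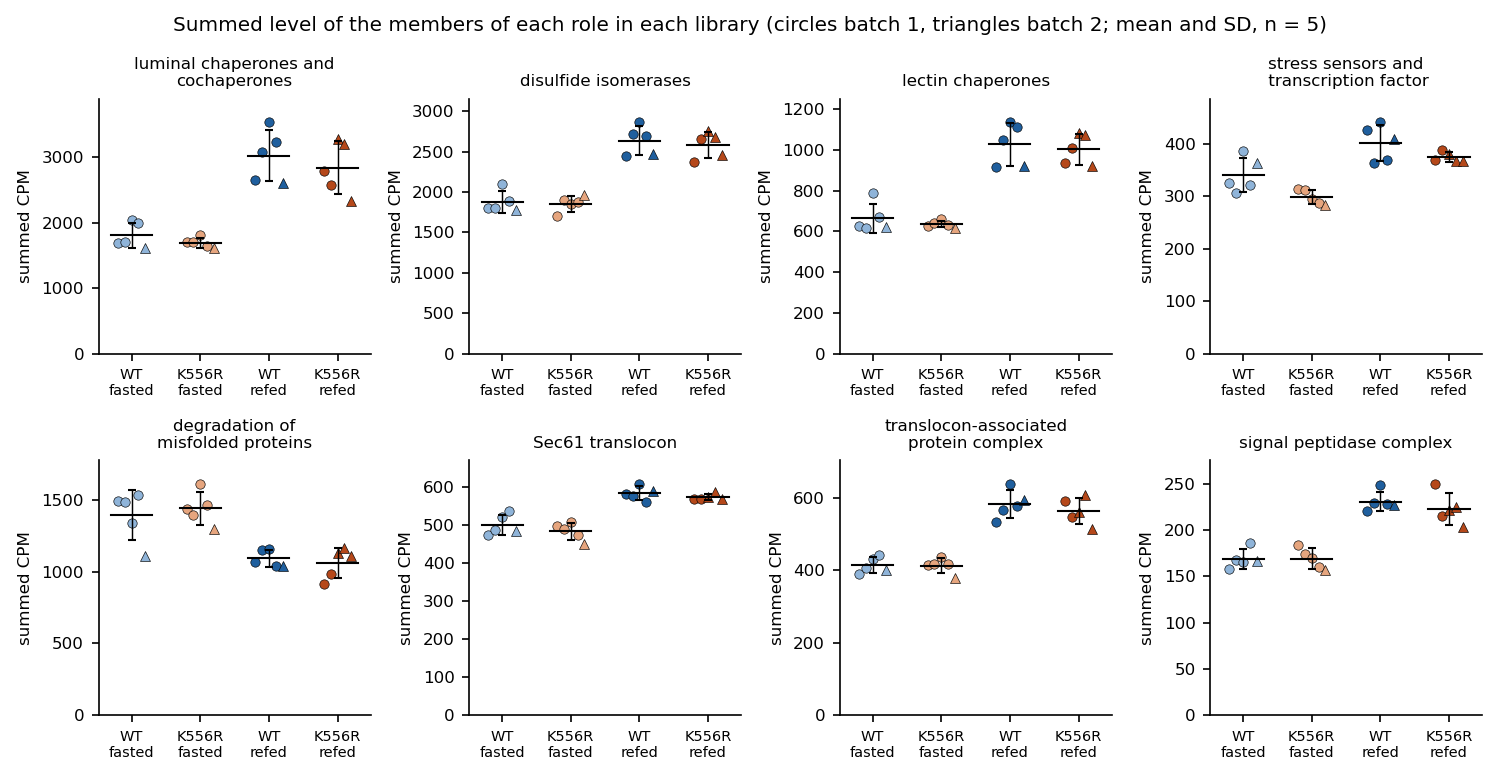
Summed level in CPM (y axis, linear from 0) of the genes of each of the 8 roles in each library, by group on the x axis, with circles for batch 1, triangles for batch 2 and the mean and SD of 5 libraries as bars. The mean sums are higher in refed livers for 7 roles and lower for the degradation of misfolded proteins, in both genotypes. Herpud1 carries the lower sum of that role, whose wild-type ranges overlap.

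The libraries differed among themselves across the 25 genes that rose. Wild type refed 3_b1 was the highest of its group in 20 of the 25 and wild type refed 1_b2 the lowest in 13. Among fasted wild-type libraries, 3_b1 was highest in 12 and 4_b1 in 11. K556R refed 3_b2 was the lowest of its group in 15 genes and 1_b2 the highest in 11. The 25 rises are thus not 25 separate pieces of evidence. The labels do not say whether libraries of a group share an animal. Each p therefore weighs a difference only against the spread among these libraries.

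K556R livers answered refeeding in the same genes. Of the 38, 27 rose, 3 fell and 8 did not pass the test, against 19.6% higher and 20.3% lower among all tested genes (39.9% in either direction), and the median log2 change was 0.48 for the 38 genes and 0.01 for all. All 28 genes called in wild type were called in the same direction in K556R, and Canx and Ern1 were called in K556R but not in wild type, a difference between genotypes that was itself not called for either gene. The K556R fasted libraries of Canx held 327, 314, 311, 279 and 279 CPM and the refed libraries 385, 318, 387, 381 and 329 CPM (log2 change 0.27, SE 0.073, adjusted p = 0.00582). For Ern1 they held 36.3, 48.4, 35.2, 41.96 and 38.8 and 54.1, 62.9, 53.7, 46.7 and 51.3 CPM (log2 change 0.45, SE 0.14, adjusted p = 0.0125). Both pairs of ranges overlapped. Without overlap were 22 genes that were higher and 2 that were lower in refed livers, against 12.8% and 14.1% of all tested genes. The summed level went from 6995 ± 222 to 9221 ± 682 CPM. Within batch 1 alone 26 genes were called in K556R and 28 in wild type. Batch 2 alone held 1 K556R fasted library and 1 library of each wild-type state, and its calls are not counted here.

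Hyou1 lay at 102, 103, 87.5, 86.6 and 91.2 CPM in fasted and at 221, 247, 276, 275 and 202 CPM in refed K556R libraries (log2 change 1.40). Pdia4 lay at 92.9, 106, 88.2, 92.00 and 106 CPM and at 229, 243, 273, 257 and 206 CPM (log2 change 1.32). Neither gene overlapped between feeding states. Ssr1 went from 74.5, 70.7, 72.8, 72.9 and 68.8 CPM to 131, 118, 124, 139 and 114 CPM (log2 change 0.79). Herpud1 held 813, 716, 952, 826 and 673 CPM in fasted livers and 146, 231, 251, 289 and 332 CPM in refed ones (log2 change −1.65), with refed 1_b1, which stood apart on the second principal component, lowest of all 20 libraries. Atf6 had 156, 139, 141, 136 and 116 CPM and 102, 90.9, 90.3, 87.1 and 93.1 CPM, its ranges again apart (log2 change −0.50). Sec62 held 142, 132, 141, 132 and 126 CPM and 116, 106, 126, 130.2 and 116 CPM, which overlapped (log2 change −0.19, SE 0.061, adjusted p = 0.0153). Leaving out K556R fasted 1_b1 and K556R refed 1_b1 gave 30 called genes in K556R and 29 in wild type, and leaving out wild type fasted 1_b2 as well gave 31 and 29. With all libraries, 39.9% of all tested genes were called in K556R and 45.1% in wild type.

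No difference between the genotypes in the refeeding response passed the test for any of the 38 genes or for any other gene (edgeR, lowest adjusted p of the 38 genes 1.00, background 0%). None of the 38 had an unadjusted p under 0.05, against 553 of 13894 tested genes, and DESeq2 called none of the 38. Apart from Derl3, the differences (K556R minus wild type) ran from −0.18 to 0.31, and their 95% intervals lay between −0.74 and 1.14. The lowest unadjusted p-values belonged to Derl3, Ern1, Derl2 and Canx. Derl3 held 0.594, 0.623, 1.57, 2.17 and 0.356 CPM in K556R fasted and 1.99, 0.900, 1.33, 0.993 and 1.05 CPM in K556R refed livers, with a difference of 2.05 (95% interval −0.12 to 4.22), which was 0.49 without wild type fasted 3_b1. Derl2 held 73.9, 72.6, 69.5, 66.5 and 68.2 CPM and 78.3, 89.2, 111, 122 and 101 CPM, and its K556R refed values were lower in the 2 batch 1 libraries than in the 3 of batch 2. Its difference of −0.17 (95% interval −0.42 to 0.07) became 0.13 in batch 2 alone. The differences of Ern1 and Canx were 0.31 (−0.09 to 0.71) and 0.14 (−0.07 to 0.35).

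**Figure D4:**
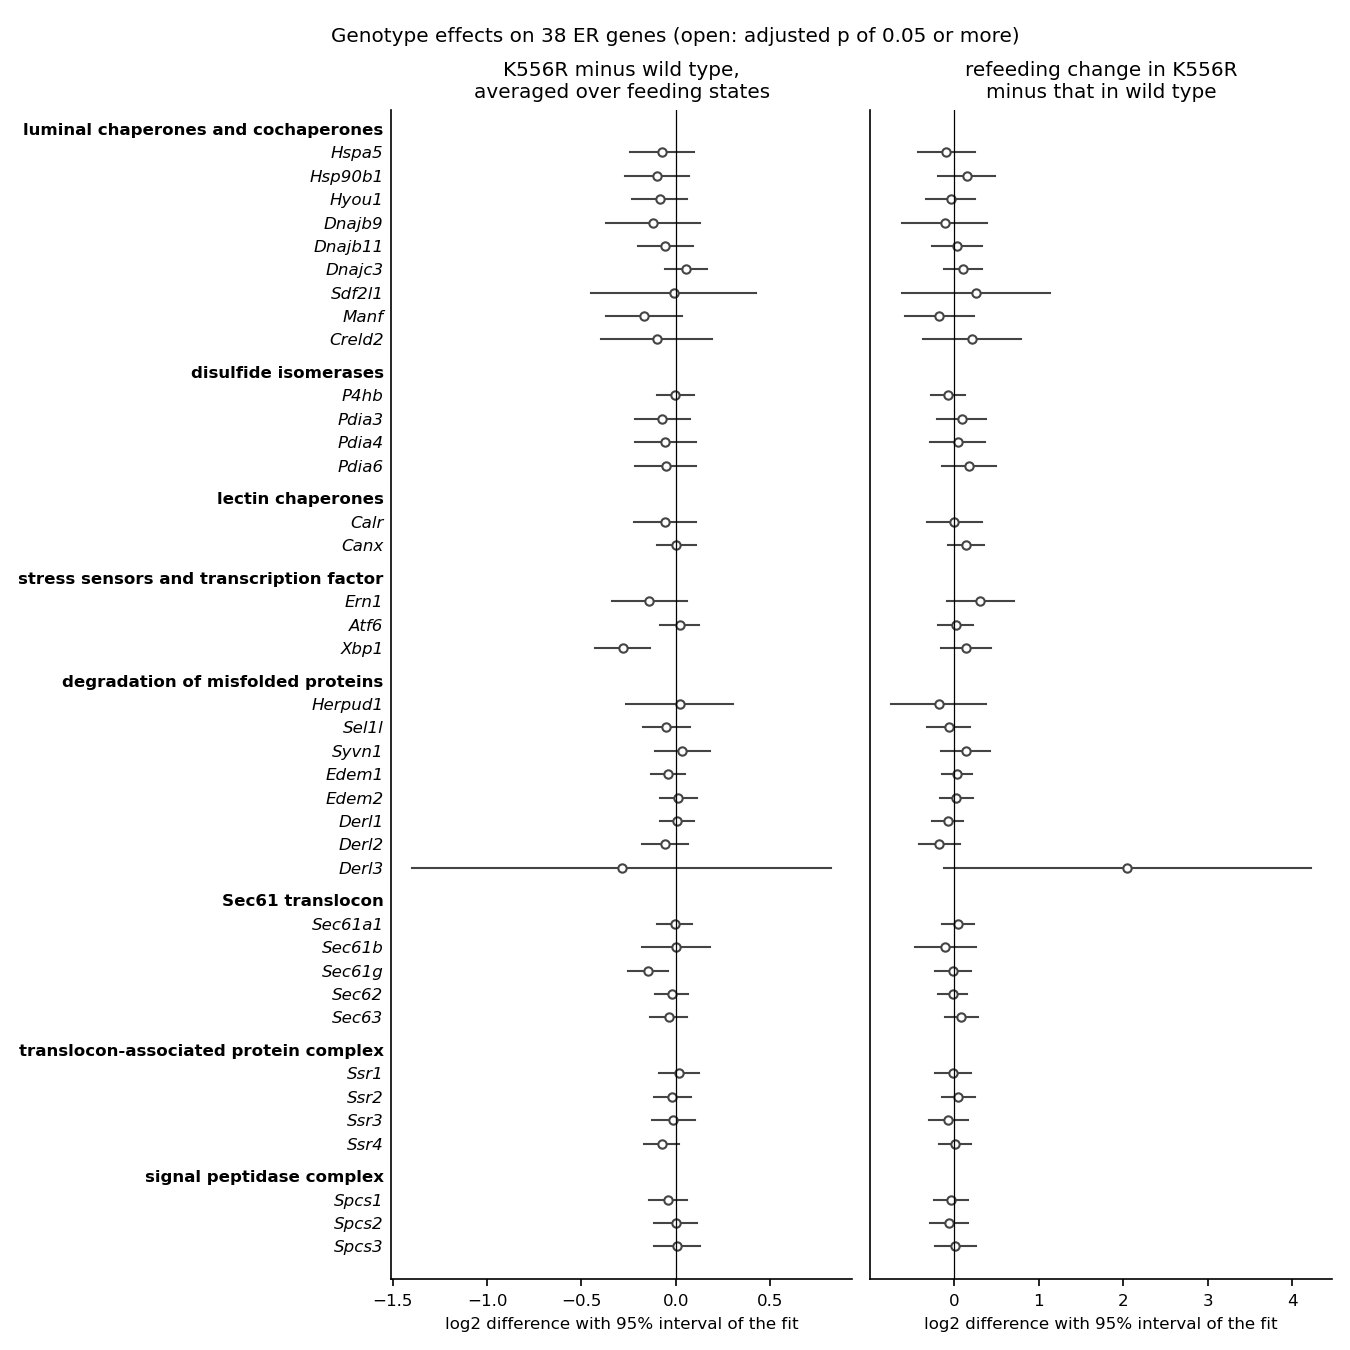
Log2 difference between genotypes averaged over feeding states (left x axis, K556R minus wild type) and difference between the refeeding changes (right x axis) for the 38 genes, by role on the y axis, with the 95% interval of the fit. All points are open (adjusted p of 0.05 or more), and in the left panel the intervals of Xbp1 and Sec61g are the ones that leave out 0.

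The genotype itself gave no call in the 38 genes with edgeR. In fasted livers 0 of 38 were called (background 0%) and 2 had an unadjusted p under 0.05, Xbp1 and Ern1, against 1136 of 13894 genes. In refed livers 0 were called (background 0%) and 1 had an unadjusted p under 0.05, Sec61g, against 693 genes. Averaged over feeding, 0 were called (background 0.0288%, of which 0.0072% higher and 0.0216% lower) and 2 had an unadjusted p under 0.05, Xbp1 and Sec61g, against 1288 genes. DESeq2 called none in fasted or refed livers and Xbp1 alone in the average (adjusted p = 0.0484). For 37 of the 38 genes the 95% interval of the averaged difference lay within a 1.5-fold change in either direction, the exception being Derl3. The median averaged difference was −0.04 for the 38 genes and 0.00 for all tested genes.

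Xbp1 had the lowest p of the 38 genes in fasted livers and in the average. Its K556R fasted libraries held 121, 124, 119, 109 and 128 CPM, all below the lowest wild type fasted library, although the gap was narrow (128.1 against 128.3 CPM). It was the only one of the 38 genes whose wild type and K556R ranges did not overlap, in fasted livers, where 0.547% of all tested genes were lower and 0.367% higher in this way. The K556R refed libraries held 213, 234, 237, 234 and 223 CPM and overlapped the wild-type ones, as all 38 genes did in refed livers, where 0.194% of all tested genes were higher and 0.425% lower without overlap. The log2 difference, K556R minus wild type, was −0.35 in fasted livers (95% interval −0.56 to −0.15, adjusted p = 0.28), −0.21 in refed livers (−0.42 to 0.00, 0.965) and −0.28 on average (−0.43 to −0.14, 0.3). The high wild type fasted values came from 3_b1 and 1_b2, at 178 and 202 CPM. Batch 2 alone, with 1_b2 as its only wild type fasted library and 1 K556R fasted library, gave −0.66 in fasted livers. The spread in that fit came only from the 3 K556R refed libraries, so that it holds none among fasted livers. Batch 1 alone, with 4 fasted libraries of each genotype, gave −0.27 (adjusted p = 0.964).

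Sec61g held 30.8, 34.3, 34.1, 31.5 and 32.4 CPM in K556R fasted and 48.6, 48.5, 42.2, 42.7 and 43.8 CPM in K556R refed livers, and both groups overlapped the wild-type ones. Its log2 difference was −0.14 in fasted livers, −0.15 in refed livers (adjusted p = 0.965) and −0.15 on average (95% interval −0.25 to −0.04, adjusted p = 0.36). Ern1 differed by −0.30 in fasted livers (95% interval −0.57 to −0.02, adjusted p = 0.561). In refed livers Manf, at 29.8, 29.6, 27.6, 23.8 and 27.7 CPM in K556R fasted and 84.2, 81.7, 110.2, 116 and 72.5 CPM in K556R refed libraries, differed by −0.25 (95% interval −0.55 to 0.04, adjusted p = 0.965), and Derl2 by −0.14 (−0.32 to 0.04, 0.965). In batch 2 alone the differences of Manf and Derl2 had the opposite sign.

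Holders of the printed elements were set beside the refeeding calls in wild type. An ERSE was found in 6 of the 20 members that rose and have a promoter sequence (Hspa5, Hsp90b1, Creld2, Pdia6, Calr and Syvn1), in 0 of the 2 that fell and in 3 of the 9 not called (Dnajc3, Canx and Derl3). Of the 2 members with ERSE-II, Dnajb11 rose and Herpud1 fell. Outside the 38 genes, 10 tested genes held an ERSE, of which 5 rose (Acacb, Acnat2, Alg12, Hnrnpa3 and Pan2) and none fell. Among all tested genes 20.9% rose and 24.2% fell. Whether the element goes with the calls was not tested.

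Other genes of the secretory pathway are given by their counts and medians for wild-type refeeding, where the median of the 38 genes was 0.49 and that of all tested genes −0.01, with 20.9% of all tested genes called higher and 24.2% called lower. The list of the PERK arm, the branch that slows translation and induces Atf4, also holds targets of that arm. Of its 12 genes, 1 rose and 6 fell (median log2 change −0.28). Whether PERK acted on these genes was not tested. The 3 with the lowest p were the stress-induced Sesn2 (log2 change −1.62, SE 0.22, adjusted p = 6.04e-06), the phosphatase subunit Ppp1r15a (−1.01) and the pseudokinase Trib3 (−1.07), and the gene that rose was Atf4 (0.56), named after its value was seen. Of 23 further ER folding genes, 8 rose and 1 fell (median 0.13), led by the disulfide isomerase Txndc5 (0.56), the translocon-associated Serp1 (0.53) and the thioredoxin-fold protein Erp44 (0.28). Of 16 genes on the list of further degradation genes, which also holds the ER exit gene Sec16a, 2 rose and 7 fell (median −0.155). Ubxn4 (0.69), Nploc4 (−0.39) and Selk (0.34) were first by p.

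Of 19 further targeting and insertion genes, 9 rose and 2 fell (median 0.23), beside the same 20.9% and 24.2% of all tested genes. Tram2, a translocon protein, fell (log2 change −1.38, SE 0.11, adjusted p = 1.42e-08), while its relative Tram1 (0.50) and Srprb, a subunit of the signal recognition particle receptor (0.61), rose. The list of COPII transport, which carries cargo from the ER to the Golgi, also holds the receptors Kdelr1, Kdelr2 and Kdelr3 and the transcription factors Creb3l2 and Creb3l3. Of its 20 tested genes, 9 rose and 4 fell (median 0.07). The coat subunit Sec23b went from 31.8 ± 3.57 to 67.9 ± 5.68 CPM (log2 change 1.10, SE 0.085, adjusted p = 1.01e-08), the cargo receptor subunit Mcfd2 rose (0.52) and the coat subunit Sec24b fell (−0.46). No gene of these lists was called in any of the 4 genotype comparisons.

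**Figure D5:**
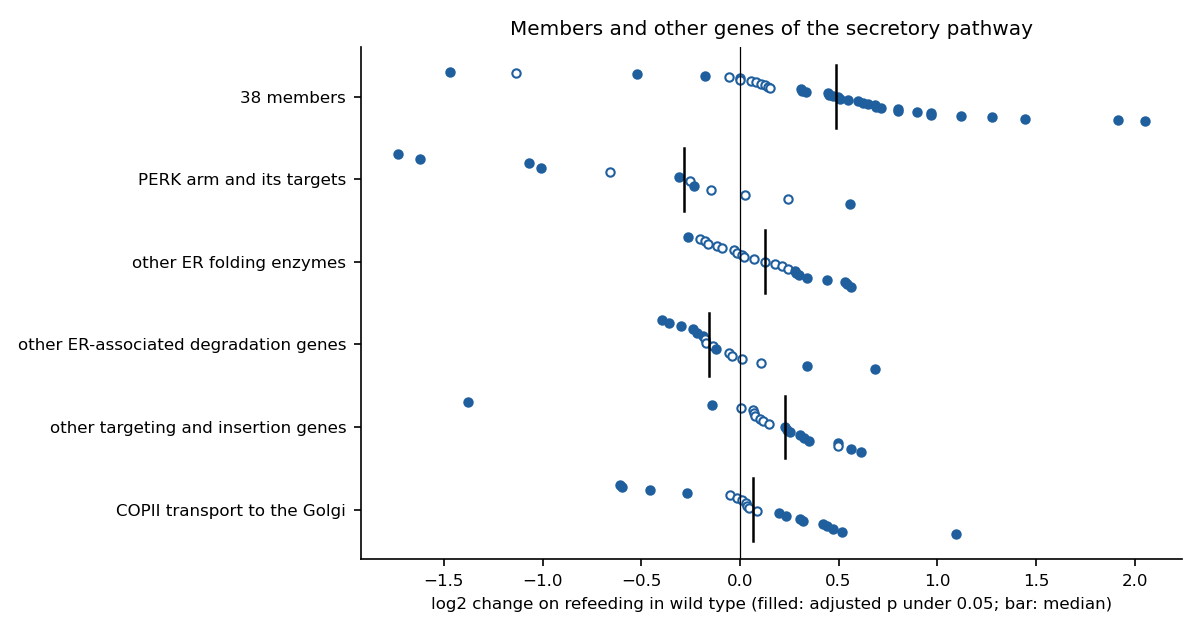
Log2 change on refeeding in wild-type livers (x axis) of the 38 ER genes and of 5 lists of other secretory pathway genes (y axis), 1 point per gene, filled for an adjusted p under 0.05, with the median as a bar. The bar of the 38 genes lies at 0.49, those of the PERK arm with its targets and of the other degradation genes lie below 0.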

How the data were processed

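For 20 liver libraries the authors deposited whole-number read counts for each gene, not normalized. The submitters' processing notes name edgeR, DESeq2, HTSeq, STAR, STAR-Fusion, TopHat and build mm10. The sources used here do not give which of them counted, the versions, the annotation or the strand setting, and the labels' protocol names poly-T capture and either a directional or a non-directional library, so overlapping antisense reads cannot be told apart.

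The test was the quasi-likelihood F test of edgeR 4.0.16 in R 4.3.3, with robust estimates, after filterByExpr (minimum count 10, minimum total 15; 13894 of 29915 genes) and TMM scaling. All 20 libraries entered 1 model with group and batch. Adjusted p-values are Benjamini-Hochberg over 13894 genes with a threshold of 0.05, and 95% intervals use the fit's degrees of freedom. Steps were tested on simulated data. The closest libraries of a group differed by a chi-square of 11.2 per degree of freedom over 40 pairs. Thus no pair within a group looked like the same library deposited more than once. Pairs from different groups were not compared, and the check cannot show whether libraries share an animal. The table gave Emc2, Emc3, Emc4, Emc6, Emc10, Fam8a1 and Mzb1 under older symbols.

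The 38 genes and the lists were chosen with earlier results of these data known. Every gene is named with its wild-type refeeding change. Values of all libraries are given for the 4 lowest p in each direction of wild-type refeeding, the 4 lowest p of the genotype by feeding difference and of K556R in refed livers, and the 2 lowest p of K556R in fasted livers and on average. Of each other list, the 3 lowest p are named. Settings varied were the scaling (RLE, upper-quartile), the tool (DESeq2 1.42.0), the filter, the batch, the groups in the fit, a replicate block and the libraries left out. Leaving out 3 libraries together was added after the data were seen.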

Additional observations from a re-analysis of the deposited data

Results flagged for a closer look

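Of 152 sets of 5 libraries (38 genes in 4 groups), 10 held a library whose gap to its nearest neighbour was more than 0.71 of the range of the group, and none of the 36 sets of summed levels did. Chance gives about 1 in 20 such sets. Wild type fasted 3_b1 was the high library in 5 of them: 10.3 CPM against 4.81 CPM in the nearest library for Sdf2l1, 414 CPM against 330.1 CPM for Pdia3, 234 CPM against 168 CPM for Pdia6, 453 CPM against 336 CPM for Calr and 10.2 CPM against 1.92 CPM for Derl3. K556R refed 3_b2 was the low library for Sdf2l1 (12.3 CPM against 21.5 CPM) and for Syvn1 (84.03 CPM against 106 CPM). K556R refed 1_b1 was low for P4hb (1372 CPM against 1599 CPM), wild type fasted 1_b2 was low for Atf6 (108 CPM against 139 CPM), and K556R fasted 3_b1 was high for Hsp90b1 (732 CPM against 648 CPM).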

How the results depend on the processing

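The number of the 38 genes called on refeeding was 28 to 31 in wild type and 26 to 32 in K556R over the other scalings, tools, filters, batch and sample settings and the fits that leave out 2 or 3 libraries, except in batch 2 alone, which called 12 in wild type (11 higher, 1 lower) from 1 library a state, whose spread is taken from the 3 K556R refed libraries of that batch. All 12 were among the 28. Leaving out each of the 20 libraries in turn gave 28 to 30 in wild type, 28 to 31 in K556R and 0 in each genotype comparison. Outside batch 2 alone, genotype counts stayed at 0 except for Xbp1, 1 gene called by DESeq2 on average. In batch 2 alone the averaged log2 difference of Xbp1 was −0.42. Values with the opposite sign were, in batch 2 alone, Manf in refed livers (0.13), Derl2 in refed livers (0.065) and Derl2 genotype by feeding (0.13), and Derl3 in wild-type refeeding without wild type fasted 3_b1 (0.25, in a range of −1.39 to 0.25 over the 20 libraries); the cause was not tested. In batch 2 alone Manf on refeeding in wild type kept its direction (log2 change 1.67). Upper-quartile scaling moved the median log2 change of all genes on wild-type refeeding to 0.06. The deviations of 18 same-numbered pairs of libraries had correlations of −0.254 to 0.632 (median −0.02), and those of 54 other pairs a median of −0.01. Of the 18, 4 were over 0.1, the highest for K556R fasted 1_b1 with K556R refed 1_b1, the 2 libraries that stand apart. Since not every pair was over 0.1, the numbers were not taken as pairing the samples. A replicate block called 29 genes in wild type, 29 in K556R and 0 in each genotype comparison. Counts of Derl3 in wild type fasted livers were 87, 30, 340, 19 and 26, the highest in 3_b1.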
